A study of Arabidopsis thaliana with 12 samples.

Results

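SAUR genes (SMALL AUXIN UP RNA) encode short proteins of plants that are known for rapid induction by auxin and for promoting cell expansion. The best studied members bind and inhibit phosphatases of the PP2C clade D, which keeps plasma membrane proton pumps (AHA proteins) phosphorylated and active, so that the cell wall is acidified and loosens. Many of the genes lie in tandem arrays of near-identical copies, and hypocotyls, petioles and other elongating organs of seedlings are the tissues they are best known for. The family was followed here through 49 Arabidopsis loci, chosen by locus code, of 25665 loci with a probe on the array. They comprise 6 loci of a chromosome 5 cluster (SAUR19 to SAUR24), 4 of a chromosome 3 cluster (SAUR26 to SAUR29), 8 of a chromosome 1 cluster (SAUR61 to SAUR68) and 31 loci elsewhere, 12 of which form smaller groups on chromosomes 4 and 2. Each locus had 1 probe, and all 49 were listed in the reference table.

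Total RNA of 4 kinds of Col-0 plant material was hybridised to 12 one-colour arrays, 3 per group. The first was callus of plants that carry 35S:WIND1, in which the constitutive 35S promoter drives the wound-induced transcription factor WIND1, with no treatment. The second was callus of wild-type T87 cells, an established suspension line, kept on 500 nM of the synthetic auxin NAA. The third was wild-type callus induced and kept on 500 µg/L of the synthetic auxin 2,4-D, and the last was intact, untreated wild-type seedlings of 14 days. All grew on solid MS medium, and each array came from a different plant or callus. The ages of the calli and the number of transgenic lines are not given in the labels. Expression is given as the log2 signal minus the log2 of the 75th percentile signal of the array, called the level below. It compares 1 gene across arrays and does not order different genes, because probes differ in brightness.

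On the arrays, 71.6% to 79.4% of all loci were well above background, and signals of that 75th percentile lay between 1755 and 3716 units. WIND1 itself had levels of 3.90, 3.20 and 3.62 in 35S:WIND1 callus, against 1.20, 1.37 and 1.22 in seedlings, a rise of 4.97-fold (adjusted p = 1.52e-05, limma). It was also 2.01-fold higher in T87 callus and 3.04-fold higher in 2,4-D callus than in seedlings. Replicates of 35S:WIND1 callus differed most among themselves. The median SD over all 21347 genes tested was 0.36 there, 0.18 with T87, 0.20 with 2,4-D and 0.11 in seedlings. Over the SAUR genes tested it was 0.76, 0.24, 0.61 and 0.20 in the same order of groups. Many SAUR signals in the calli were not well above background, and their scatter enters these values, so they do not measure variation of expression alone.

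More SAUR genes were measurable on each seedling array than on any callus array. Of the 49 loci, 21, 21 and 29 were well above background on the 3 arrays of 35S:WIND1 callus, 14, 17 and 15 in T87 callus, 16, 14 and 20 in 2,4-D callus, and 44 on each seedling array. The 44 genes measured in seedlings were the ones tested. Among them, 15 were not well above background on any 35S:WIND1 array, 25 on none of T87 callus and 25 on none of 2,4-D callus. Of all 19762 genes measured on the 3 seedling arrays, 2.59%, 7.79% and 5.67% were lost in those calli in the same way.

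**Figure D1:**
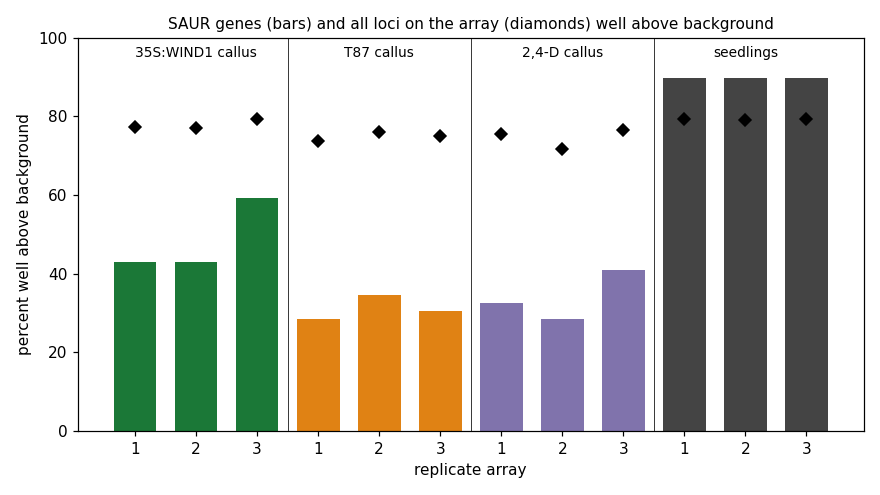
Percent of loci well above background on each array, with the 12 arrays by group and replicate on the horizontal axis. Bars give the 49 SAUR loci and diamonds all 25665 loci. SAUR bars stand above the diamonds in the 3 seedling arrays and below them in all 9 callus arrays.

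Calls below rest on limma over all genes and need both an adjusted p (Benjamini-Hochberg) below 0.05 and at least a 2-fold change. Of the 44 SAUR genes tested, callus of 35S:WIND1 plants had 31 lower and 2 higher than seedlings, beside 19.6% of all genes called lower and 12.5% called higher. In T87 callus 34 were lower and 2 higher, beside 26.5% and 20.8% of all genes. In 2,4-D callus 32 were lower and 5 higher, beside 24.2% and 18.6%. The set lower in each of the 3 calli held 29 SAUR genes, 17 in the 3 clusters and 12 outside them, beside 11.4% of all genes. Another 2 were higher in each callus, beside 4.29%, and 6 were called in none. The 3 comparisons share the seedling arrays.

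A gene enters the test if it is well above background on all 3 arrays of some group. Of the 44, 25 entered through the seedlings alone and had to be lower in callus, so their counts describe them and support nothing. Of these, 23 were called lower in all 3 calli, as were 76.4% of the 842 genes overall that entered in this way. The other 19 were also measured in some callus. Among them 8, 10 and 8 were lower in 35S:WIND1, T87 and 2,4-D callus, while 3492, 4916 and 4452 of all 20505 genes that entered through a callus were lower. Those 20505 include genes not measured on all 3 seedling arrays, while all 19 SAUR genes were, so the sets are not fully alike. With normexp background correction, the genes called lower numbered 13, 21 and 15 in the 3 calli, beside 7.86%, 12.8% and 12.5% of all genes with that correction. When a comparison was kept to SAUR genes measured on all 6 of its arrays, 7 of 18, 4 of 12 and 3 of 14 were lower in 35S:WIND1, T87 and 2,4-D callus, beside 16%, 18.7% and 17.7% of all genes measured on those 6 arrays. Only a few SAUR genes carry these last counts.

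The median log2 change over the genes tested was -4.21, -4.76 and -5.19 in 35S:WIND1, T87 and 2,4-D callus, and 0.07, -0.00 and 0.15 over all genes. Where no array of a callus measured a gene, the signal only bounds the change, and the bound is given below as "at least N-fold". With such genes at their bounds the SAUR medians were -3.69, -4.00 and -3.63. Through the seedlings alone entered 25 of the 44 SAUR genes and 842 of all 21347 genes. The SAUR medians thus depend on the filter, also at the bounds, and are no measure of the family apart from it.

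**Figure D2:**
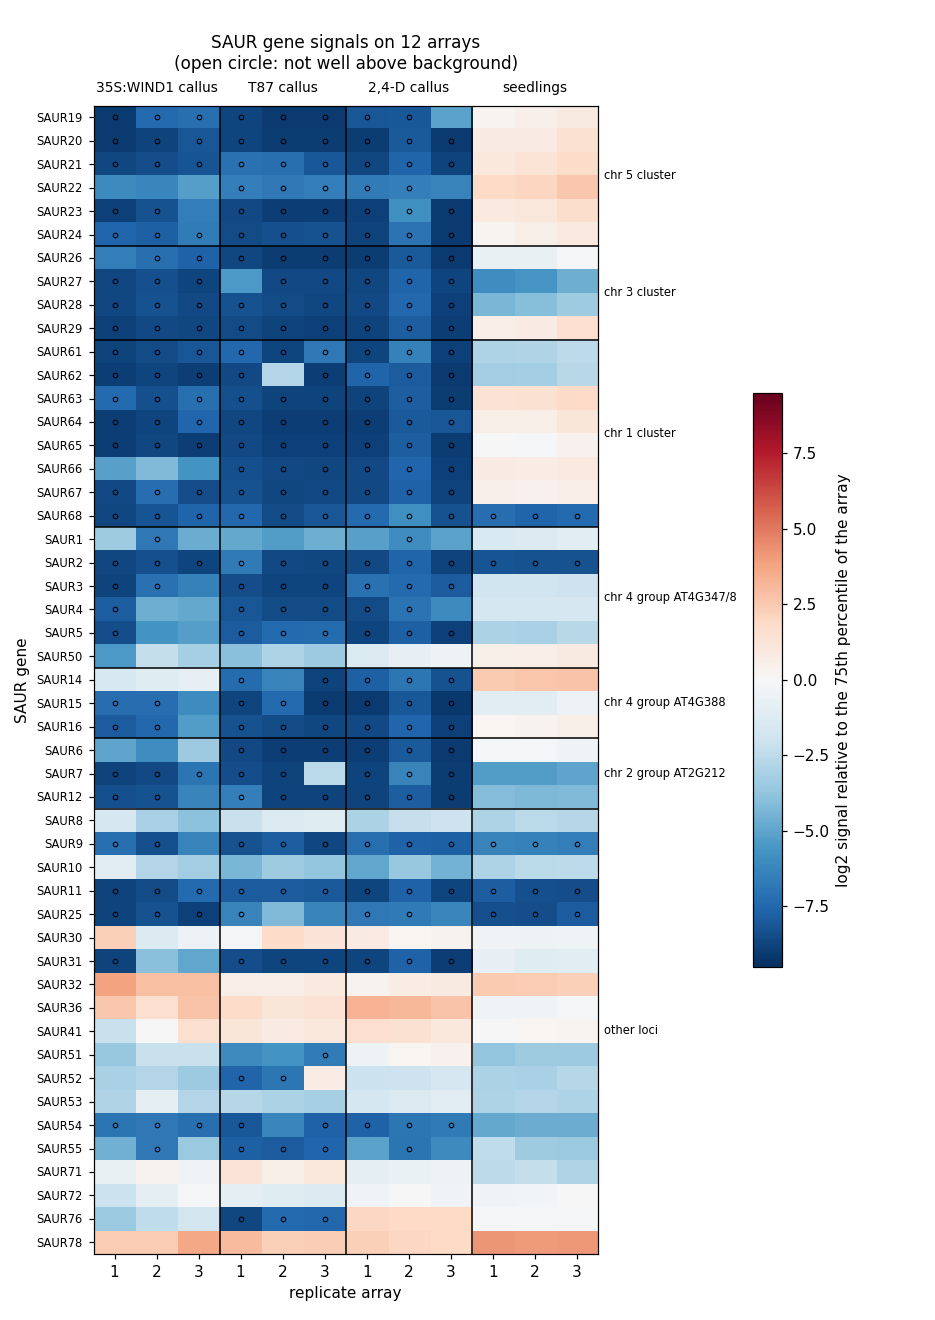
Level of each SAUR gene (rows, by cluster or group) on each array (columns, by group and replicate), as log2 signal over the 75th percentile of that array. Open circles mark signals not well above background. Most cluster signals carry circles in the calli and none do in seedlings, apart from SAUR68, which no array measured.

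The chromosome 5 cluster holds SAUR19 to SAUR24 (AT5G18010, AT5G18020, AT5G18030, AT5G18050, AT5G18060 and AT5G18080). SAUR19 is the protein for which inhibition of PP2C clade D phosphatases was first worked out in Arabidopsis, and the members of its subfamily promote cell expansion. Over the 6 genes and 3 arrays a group, levels ran between -9.07 and -5.20 in 35S:WIND1 callus, between -9.08 and -6.47 in T87 callus, between -9.13 and -5.09 in 2,4-D callus, and between 0.23 and 2.55 in seedlings. Every callus array lay below every seedling array for each of the 6 genes, and the share of all genes is given below with the 3 clusters. All 6 were called lower in each callus, beside 11.4% of all genes. All but SAUR22 had entered the test through the seedlings alone, so neither count supports anything for them.

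SAUR22 was the only gene of this cluster measured on every 35S:WIND1 array. Its levels were -6.06, -6.18 and -5.20 in 35S:WIND1 callus, -6.47, -6.79 and -6.59 in T87 callus, -6.66, -6.49 and -6.32 in 2,4-D callus, and 1.86, 2.01 and 2.55 in seedlings. It was 247-fold lower in 35S:WIND1 callus (SE of the log2 change 0.27, adjusted p = 8.06e-08) and at least 422-fold lower in T87 callus (adjusted p = 9.65e-09). The 3 calli lay near each other, and their arrays overlapped between T87 callus and 2,4-D callus. SAUR19 had levels of -9.07, -7.41 and -7.18 in 35S:WIND1 callus, -8.73, -9.06 and -9.08 in T87 callus, -8.13, -8.08 and -5.09 in 2,4-D callus, and 0.30, 0.46 and 0.89 in seedlings. The third 2,4-D array alone was well above background among the 9 callus arrays. SAUR19 was at least 149-fold lower in 35S:WIND1 callus and at least 147-fold lower in T87 callus.

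SAUR20, SAUR21 and SAUR24 were well above background on no callus array. SAUR20 was at least 204-fold, 200.5-fold and 176-fold lower in 35S:WIND1, T87 and 2,4-D callus. For SAUR21 the bounds were 263-fold, 258-fold and 227-fold, and for SAUR24 146-fold, 147-fold and 129-fold. SAUR23 reached background on 1 array, the third of 35S:WIND1 callus at -6.54, and was at least 237-fold lower in T87 callus and at least 208-fold lower in 2,4-D callus. These copies are close relatives in tandem, so signal of one may reach the probe of another, and a value for a single copy is uncertain.

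The chromosome 3 cluster holds SAUR26 to SAUR29, a subfamily known from natural variation in how Arabidopsis growth responds to temperature. SAUR29 levels ran between -8.84 and -8.59 in 35S:WIND1 callus, -8.84 and -8.49 in T87 callus, -8.95 and -7.84 in 2,4-D callus, against 0.62, 0.74 and 1.61 in seedlings. No callus array measured it, and it was at least 203-fold, 199.5-fold and 175-fold lower in the 3 calli. SAUR26 had levels of -6.60, -7.16 and -7.68 in 35S:WIND1 callus, where only the first array was above background, and of -0.73, -0.71 and -0.09 in seedlings. It was at least 70.4-fold lower in T87 callus and at least 61.9-fold lower in 2,4-D callus.

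SAUR28 and SAUR27 were dim in seedlings too. SAUR28 had seedling levels of -4.32, -4.08 and -3.38 and was measured in no callus, which bounds its fall at 6.70-fold, 6.59-fold and 5.80-fold. SAUR27 had levels of -5.46, -8.55 and -8.56 in T87 callus and -5.87, -5.58 and -4.65 in seedlings. The first T87 array therefore lay within the seedling range. The call in T87 callus (log2 change -2.16, SE 0.74, adjusted p = 0.0246) was lost without T87 replicate 2 (log2 change -1.64), without T87 replicate 3 (-1.64) and without seedling replicate 3 (-1.80).

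The chromosome 1 cluster holds SAUR61 to SAUR68, of which SAUR63 is known to promote elongation of hypocotyls and stamen filaments. SAUR63 levels were -7.39, -8.37 and -7.14 in 35S:WIND1 callus, -8.37, -8.80 and -8.78 in T87 callus, -8.76, -7.82 and -9.03 in 2,4-D callus, and 1.401, 1.47 and 1.85 in seedlings. It was measured on no callus array and was at least 303-fold, 298-fold and 262-fold lower in the 3 calli. SAUR64, SAUR65 and SAUR67 were also measured on no callus array, with bounds between 95.3-fold and 172-fold.

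SAUR66 was the only gene of this cluster measured in 35S:WIND1 callus. Its levels were -5.14, -4.17 and -5.70 in 35S:WIND1 callus, -8.36, -8.59 and -8.64 in T87 callus, -8.60, -7.57 and -8.86 in 2,4-D callus, and 0.80, 0.73 and 0.95 in seedlings. All 3 arrays of 35S:WIND1 callus measured it and none of the auxin-kept calli did. Its higher call against 2,4-D callus was lost with normexp correction, as given below. It was 56.8-fold below seedlings in 35S:WIND1 callus (SE 0.39, adjusted p = 2.59e-06), and at least 178-fold lower in T87 callus and 156-fold lower in 2,4-D callus.

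SAUR62 went by a single array in T87 callus, with levels of -8.60, -2.78 and -8.93 there, against -3.30, -3.24 and -2.63 in seedlings. The second T87 array lay inside the seedling range, and the call (adjusted p = 0.028) was lost without any single seedling array and without T87 replicate 1 or 3. SAUR62 was at least 12.2-fold lower in 35S:WIND1 callus and at least 10.6-fold lower in 2,4-D callus. SAUR61 was measured on no callus array, with bounds of 15.1-fold, 14.9-fold and 13.1-fold.

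All 17 genes of the 3 clusters that were tested were called lower in each callus, beside 11.4% of all genes. Of the 17, 15 had entered the test through the seedlings alone. With normexp correction 10 of the 17 were called lower in 35S:WIND1 callus, 13 with T87 and 11 with 2,4-D, and none was called higher in those 3 comparisons. The last seedling array held the highest level of all 17, as it did for 31.5% of all genes. For 15 of the 17, all 9 callus arrays lay below all seedling arrays, the exceptions being SAUR62 and SAUR27. Of all genes tested, 18.2% had all callus arrays below all seedling arrays. Summed over the 18 loci, the signal in multiples of the 75th percentile was 0.0939 to 0.127, 0.0586 to 0.197 and 0.0567 to 0.124 in 35S:WIND1, T87 and 2,4-D callus, against 22.5 to 33.9 in seedlings. Of the 51 signals of the 17 genes in each callus, only 8, 2 and 2 were well above background. The callus sums thus consist mostly of unmeasured signal, and no size of the fall is read from them.

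Genes of other kinds around these clusters were called in both directions. Of 28 genes without a SAUR name that lie between the cluster members or next to them, 22 were tested. In 35S:WIND1 callus 3 were called higher and 5 lower than in seedlings, in T87 callus 3 and 5, and in 2,4-D callus 5 and 5. The shares of all genes called higher and lower were 12.5% and 19.6%, 20.8% and 26.5%, and 18.6% and 24.2%. Nothing is read from these few calls about the regions of the clusters. The median log2 change of the 22 was 0.0080, -0.28 and 0.16 in the 3 calli. AT5G18040, between SAUR21 and SAUR22, had changes of 0.11, 0.27 and -0.12 on the log2 scale and was called in none.

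**Figure D3:**
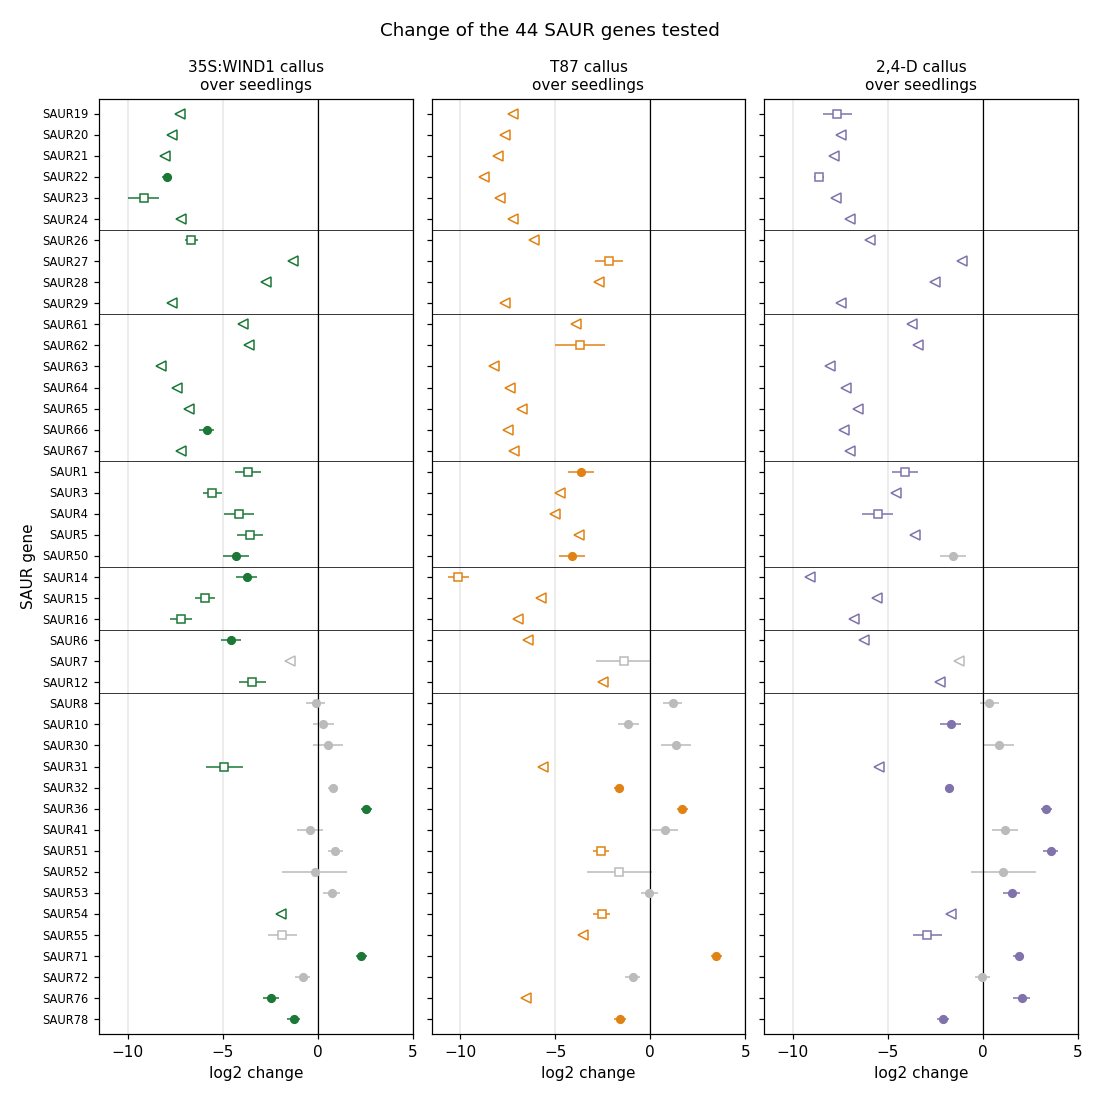
Log2 change of each of the 44 SAUR genes tested (rows) in each callus over seedlings. Filled circles are genes measured on all 3 callus arrays, open squares genes measured on 1 or 2 (bars are the SE of the fit), and open triangles bounds for genes measured on none. Grey marks genes that were not called. All genes of the first 3 blocks, which are the clusters, lie left of 0, and rises appear among the other loci in the lowest block.

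Outside the clusters, 27 genes were tested. In each callus, the gene with the largest fitted fall among them belonged to a chromosome 4 group of SAUR14, SAUR15 and SAUR16. Callus signals not well above background enter these fits, and the other genes of the group did not all rank next. SAUR15, also known as SAUR-AC1, is the auxin-inducible gene with which the family was first described in Arabidopsis, and SAUR16 is known for induction by light in cotyledons. SAUR14 (AT4G38840) had levels of -1.49, -1.13 and -0.75 in 35S:WIND1 callus, -7.32, -6.34 and -8.80 in T87 callus, -7.79, -6.84 and -8.28 in 2,4-D callus, and 2.497, 2.61 and 2.72 in seedlings. The 4 groups fell into 3 ranges, with the auxin-kept calli lowest and overlapping, 35S:WIND1 callus between and seedlings highest. SAUR14 was 13.3-fold below seedlings in 35S:WIND1 callus (SE 0.55, adjusted p = 3.42e-04) and at least 537-fold lower in 2,4-D callus (adjusted p = 2.26e-07). In T87 callus, where 1 of 3 arrays measured it, the log2 change was -10.10.

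SAUR16 had levels of -7.89, -7.42 and -5.31 in 35S:WIND1 callus, of which the third was well above background, and of 0.18, 0.31 and 0.52 in seedlings. Its log2 change in 35S:WIND1 callus was -7.21, and it was at least 127-fold lower in T87 callus and 111-fold lower in 2,4-D callus. SAUR15 was at least 53.7-fold and 47.2-fold lower in those calli. In 35S:WIND1 callus SAUR15 had levels of -7.27, -7.23 and -5.95, against -1.08, -1.05 and -0.57 in seedlings, a log2 change of -5.92.

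A chromosome 2 group held SAUR6, SAUR7 and SAUR12. SAUR6 had levels of -5.01, -5.86 and -3.47 in 35S:WIND1 callus, all well above background, between -8.96 and -8.61 in T87 callus, between -9.13 and -7.95 in 2,4-D callus, and -0.16, -0.17 and -0.32 in seedlings. It was 23.6-fold lower in 35S:WIND1 callus (SE 0.52, adjusted p = 5.99e-05), and at least 86.2-fold and 75.8-fold lower in T87 callus and 2,4-D callus. SAUR12 was called lower in each callus, with seedling levels of -4.12, -4.28 and -4.16. SAUR7 was called in none. T87 replicate 3 stood at -2.59 beside -8.44 and -8.81 on the others, and seedlings had -5.33, -5.30 and -5.05.

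On chromosome 4, SAUR1, SAUR3, SAUR4, SAUR5 and SAUR50 lie near each other. SAUR50 is another gene known for induction by light in cotyledons. It had levels of -5.43, -2.23 and -3.17 in 35S:WIND1 callus, -3.95, -2.90 and -3.46 in T87 callus, -1.39, -0.81 and -0.46 in 2,4-D callus, and 0.53, 0.63 and 0.87 in seedlings. It was 19.5-fold lower in 35S:WIND1 callus (SE 0.67, adjusted p = 4.57e-04) and 17.3-fold lower in T87 callus (SE 0.67, adjusted p = 3.20e-04). In 2,4-D callus its change of -1.56 (SE 0.67, adjusted p = 0.060) missed the threshold, although no array reached the seedling range. SAUR3, SAUR4, SAUR5 and SAUR1 were called lower in each callus. SAUR3 had levels of -8.80, -7.12 and -6.43 in 35S:WIND1 callus, where the last array alone was well above background, and of -1.89, -1.91 and -1.94 in seedlings, a log2 change of -5.54.

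In these 5 genes the SD over 3 arrays was 1.22 to 1.78 in 35S:WIND1 callus, 0.15 to 0.53 in T87 callus, 0.41 to 1.21 in 2,4-D callus and 0.03 to 0.21 in seedlings. Over all genes the median SD was 0.36, 0.18, 0.20 and 0.11 in the same order. SAUR3, SAUR4 and SAUR5 were well above background on no T87 array, so their SD there is scatter of unmeasured signal. These values therefore do not compare variation of expression between the groups. SAUR4 had levels of -7.82, -4.64 and -4.86 in 35S:WIND1 callus, against -1.68, -1.67 and -1.60 in seedlings, and SAUR5 had -8.42, -5.69 and -5.26, against -3.003, -3.07 and -2.67. For SAUR3 the first and second arrays were not well above background and have no order. The first array was lowest for SAUR4, SAUR5 and SAUR50, as it was for 37.3% of all genes. SAUR1 went the other way, with -3.37, -6.79 and -4.69 in 35S:WIND1 callus, against -1.43, -1.38 and -1.07 in seedlings. SAUR31, at another locus, resembled SAUR4 with -8.80, -3.99 and -4.95 in 35S:WIND1 callus, against -0.81, -1.16 and -1.06 in seedlings, and was at least 49.9-fold lower in T87 callus and 43.8-fold lower in 2,4-D callus.

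Of the 44 genes tested, 5 were called higher in some callus than in seedlings. The counts were 2, 2 and 5 in 35S:WIND1, T87 and 2,4-D callus, beside 12.5%, 20.8% and 18.6% of all genes. The number of rises is therefore no result about the family, and the genes are described one by one. SAUR36 (AT2G45210), known as a promoter of leaf senescence, was higher in all 3. Its levels were 2.53, 1.57 and 2.74 in 35S:WIND1 callus, 1.73, 1.19 and 1.35 in T87 callus, 3.34, 3.16 and 2.74 in 2,4-D callus, and -0.37, -0.33 and -0.09 in seedlings. No callus array overlapped the seedlings. The rise was 5.84-fold in 35S:WIND1 callus (SE 0.29, adjusted p = 6.63e-05), 3.21-fold in T87 callus (SE 0.29, adjusted p = 5.07e-04) and 10.1-fold in 2,4-D callus (SE 0.29, adjusted p = 5.29e-06).

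SAUR71 (AT1G56150), a member of the SAUR41 subfamily that modulates cell expansion, was the other gene higher in all 3. Levels were -0.72, 0.35 and -0.35 in 35S:WIND1 callus, 1.21, 0.56 and 1.04 in T87 callus, -0.87, -0.60 and -0.50 in 2,4-D callus, and -2.47, -2.26 and -2.87 in seedlings. It rose 4.91-fold, 11.1-fold and 3.67-fold in the 3 calli (SE 0.28 each, adjusted p = 1.02e-04, 2.84e-06 and 2.16e-04). Its relatives SAUR41 and SAUR72 were called in no callus, with log2 changes of -0.39, 0.80 and 1.18 for SAUR41 and of -0.80, -0.92 and -0.04 for SAUR72.

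SAUR51, SAUR53 and SAUR76 were higher in 2,4-D callus alone. SAUR51 (AT1G75580) had levels of -3.57, -2.15 and -2.10 in 35S:WIND1 callus, -6.04, -5.68 and -6.68 in T87 callus, -0.46, 0.16 and 0.37 in 2,4-D callus, and -3.76, -3.36 and -3.48 in seedlings. It rose 11.75-fold in 2,4-D callus (SE 0.41, adjusted p = 3.31e-05) and fell by 2.60 on the log2 scale in T87 callus, where 2 of 3 arrays measured it (adjusted p = 2.50e-04). The change of 0.92 in 35S:WIND1 callus did not pass (adjusted p = 0.080).

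SAUR76 (AT5G20820), a relative of SAUR78 with a known part in ethylene responses, had the widest spread between calli. Its levels were -3.50, -2.41 and -1.78 in 35S:WIND1 callus, -8.68, -7.40 and -7.44 in T87 callus, 1.96, 1.87 and 1.89 in 2,4-D callus, and -0.18, -0.11 and -0.09 in seedlings. The 4 groups did not overlap. SAUR76 rose 4.09-fold in 2,4-D callus (SE 0.43, adjusted p = 0.0018), and was 5.41-fold lower in 35S:WIND1 callus (adjusted p = 9.43e-04) and at least 91.8-fold lower in T87 callus (adjusted p = 2.31e-07). SAUR53, which is next to SAUR54 by locus number, rose 2.87-fold in 2,4-D callus (SE 0.45, adjusted p = 0.0125), with levels of -1.69, -1.37 and -1.09 there, against -2.96, -2.80 and -2.96 in seedlings. With normexp correction the rises of SAUR51, SAUR76 and SAUR53 in 2,4-D callus had log2 changes of 2.23, 1.88 and 0.72 and were not called. Across all genes, 5.64% were called in opposite directions in different calli, as SAUR51 and SAUR76 were.

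**Figure D4:**
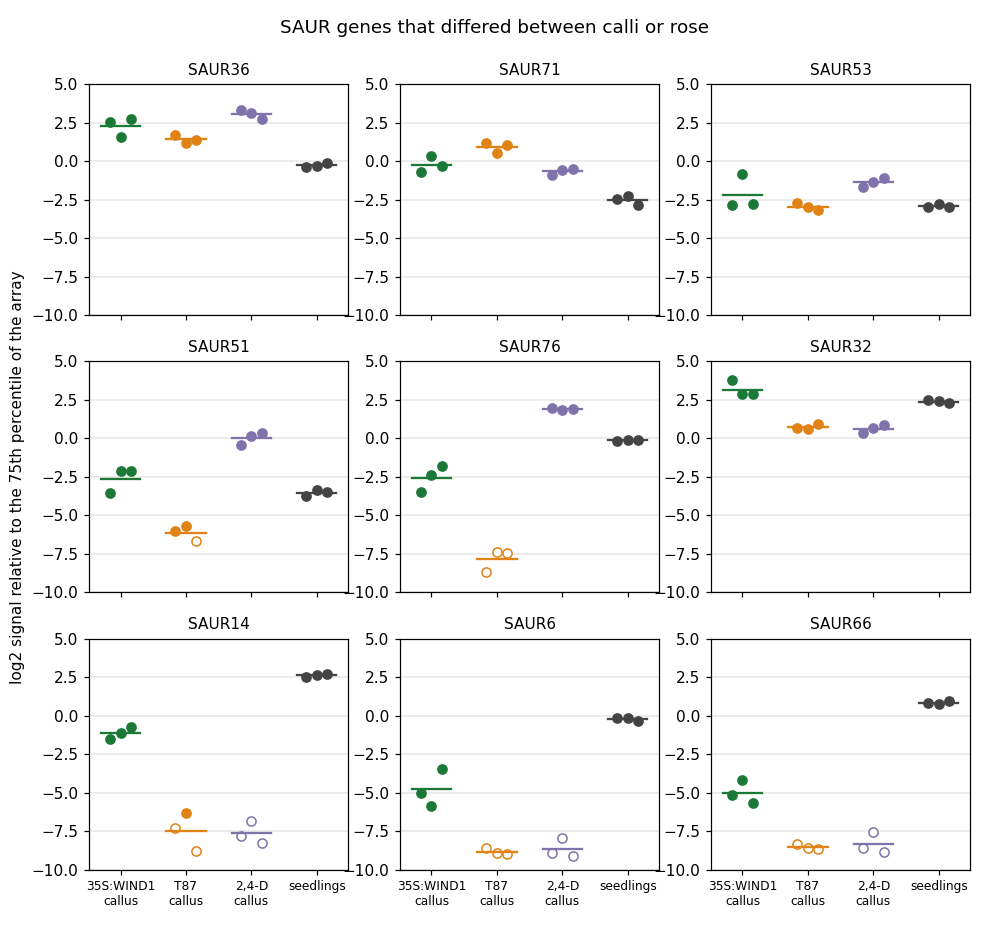
Levels of 9 SAUR genes by group, as log2 signal over the 75th percentile of that array. Points are arrays, open where not well above background, and lines are means of 3. SAUR36 and SAUR71 lie above the seedlings in each callus, SAUR76 spreads over all 4 groups without overlap, and SAUR14, SAUR6 and SAUR66 are well above background in 35S:WIND1 callus and, but for 1 T87 array of SAUR14, in neither auxin-kept callus.

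SAUR32, known from overexpression that disturbs the apical hook, was lower in the 2 auxin-kept calli. Levels were 3.80, 2.85 and 2.86 in 35S:WIND1 callus, 0.65, 0.64 and 0.95 in T87 callus, 0.33, 0.67 and 0.87 in 2,4-D callus, and 2.47, 2.40 and 2.30 in seedlings. It was 3.12-fold lower in T87 callus (adjusted p = 1.98e-04) and 3.40-fold lower in 2,4-D callus (adjusted p = 1.35e-04), while its higher level in 35S:WIND1 callus (log2 change 0.78, adjusted p = 0.023) was under 2-fold. SAUR78 was lower in all 3, by 2.41-fold, 3.03-fold and 4.22-fold, and was measured on all 12 arrays. With each array scaled to its median, which raised the median log2 change of all genes by 0.40, 0.85 and 0.73 in the 3 calli, the calls of SAUR78 in 35S:WIND1 callus and of SAUR32 and SAUR78 in T87 callus were lost, and no called gene changed direction.

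SAUR54 was lower in each callus, at least 3.76-fold in 35S:WIND1 callus and 3.16-fold in 2,4-D callus. SAUR55 was at least 11.65-fold lower in T87 callus and had a log2 change of -2.92 in 2,4-D callus, where 2 arrays measured it. SAUR10, known to promote stem growth, was 3.22-fold lower in 2,4-D callus (adjusted p = 0.0215), a call lost without 2,4-D replicate 1 (log2 change -1.37) or 3 (-1.62) and without seedling replicate 2 (-1.63) or 3 (-1.62). SAUR8, SAUR30 and SAUR52 were called in no callus, and the third T87 array of SAUR52 stood at 0.73 beside -7.58 and -6.89.

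The 5 loci that did not enter the test were SAUR2, SAUR11 and SAUR68, which no array measured, SAUR9, above background on 1 array of 35S:WIND1 callus, and SAUR25. SAUR25 was above background on 2 T87 arrays and 1 of 2,4-D callus and on none of the others, with levels of -6.34, -4.16 and -6.24 in T87 callus and -8.34, -8.43 and -7.89 in seedlings.

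Between calli, 35S:WIND1 callus had 14 SAUR genes higher and 2 lower than T87 callus, beside 20.0% and 16.8% of all genes. Of those 14, 2 were measured on all 6 arrays and 8 kept 2-fold with the dim callus at its bound. When only these 2 groups were fitted, 9 were called higher in all, and 9 were under median scaling and 2 with normexp correction. The genes lower numbered 1 with normexp correction and 0 with the deposited values. Of the 2 measured on all 6 arrays, SAUR32 was 5.35-fold higher (SE 0.25, adjusted p = 2.15e-05) and SAUR10 was 2.73-fold higher (adjusted p = 0.0457), a call lost without 35S:WIND1 replicate 1 (log2 change 0.77) or 2 (1.65) and without any single T87 array (1.17 to 1.65). Signals below background have no order, so the fitted differences of the other genes are not ranked by size. Among them were SAUR14, with a log2 change of 6.37 (adjusted p = 7.20e-06), SAUR76, at least 17.0-fold higher, and SAUR6, at least 3.65-fold higher in 35S:WIND1 callus. The 2 lower genes were SAUR71, 2.25-fold lower (SE 0.28, adjusted p = 0.0049), and SAUR21, which neither callus measured. The SAUR71 call was lost without 35S:WIND1 replicate 1 (log2 change -0.93). With normexp correction SAUR76 and SAUR6 were no longer called between these calli (log2 changes of 1.66 and 0.90).

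Against 2,4-D callus, 35S:WIND1 callus had 8 higher and 3 lower, beside 16.8% and 11.7% of all genes. The genes higher numbered 1 with normexp correction and 16 with the deposited values, and the genes lower 1 with normexp correction and 6 under median scaling. Of all 21347 genes, 1581 and 6244 were called higher in the first 2 cases, and 878 and 4060 lower in the last 2. The deposited values raised the median log2 change of all genes by 0.66 here. On all 6 arrays SAUR32 was measured as 5.84-fold higher (SE 0.25, adjusted p = 2.56e-05) and SAUR10 as 3.93-fold higher (adjusted p = 0.0144), a call lost without 2,4-D replicate 1 (log2 change 1.66). Rises with 2,4-D callus at its bound included SAUR14, at least 40.5-fold, SAUR6, at least 3.21-fold, and SAUR66, at least 2.75-fold higher. The 3 lower genes were SAUR76, 22.1-fold (SE 0.43, adjusted p = 2.21e-05), SAUR50, 6.61-fold (SE 0.67, adjusted p = 0.0070), and SAUR51, 6.19-fold lower (SE 0.41, adjusted p = 4.90e-04). Among these 6 genes, normexp correction ended the calls of SAUR14 (2.17), SAUR6 (0.20), SAUR66 (0.25), SAUR50 (-1.74) and SAUR51 (-1.99), and SAUR50 was not called when these 2 groups alone were fitted. Between the auxin-kept calli, 1 gene was higher and 5 were lower in T87 callus than in 2,4-D callus, beside 19.7% and 19.2%. SAUR71 was 3.02-fold higher, SAUR76 at least 376-fold lower, SAUR50 5.85-fold lower, and SAUR51 lower by a log2 change of -6.16. SAUR36 and SAUR53 were 3.16-fold and 2.96-fold lower.

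Of the 17 cluster genes tested, 13 were measured on no array of either auxin-kept callus. Against T87 callus, 3 were called higher and 1 lower in 35S:WIND1 callus, beside 20.0% and 16.8% of all genes. Against 2,4-D callus 2 were higher and 0 lower, beside 16.8% and 11.7%. For 3 of the 4 calls against T87 callus and 1 of the 2 against 2,4-D callus, neither group measured the gene on all 3 arrays. These counts are no result about the clusters. SAUR66 is the one of them with a fold above 2 at its bound in both comparisons.

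A further 31 loci carry a SAUR name or synonym in the reference table and are outside the 49. One of them, AT5G01830, shares the name SAUR21 with AT5G18030 of the chromosome 5 cluster. Of the 31, 22 were tested, and relative to seedlings 5 rose and 8 fell in 35S:WIND1 callus, 2 and 12 with T87, and 2 and 14 in 2,4-D callus. Of all genes, 12.5% rose and 19.6% fell in 35S:WIND1 callus, 20.8% and 26.5% with T87, and 18.6% and 24.2% with 2,4-D. SAUR34 was 22.4-fold and SAUR35 9.01-fold higher in 35S:WIND1 callus, and SAUR59 was 20.5-fold and SAUR70 7.04-fold higher in T87 callus. The median log2 change of the 22 was -0.34, -1.84 and -2.25, and -0.34, -1.09 and -1.95 with unmeasured genes at their bounds.

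Genes known to act before or after SAUR proteins were called in both directions or not at all. Their lists are short. Shares of all genes called higher were 12.5%, 20.8% and 18.6% in 35S:WIND1, T87 and 2,4-D callus, and 19.6%, 26.5% and 24.2% were called lower. The counts of each list below stand beside these shares, and nothing is read from the counts about a list. Of 9 auxin receptor and cell surface kinase genes tested, limma called 1 lower than seedlings in 35S:WIND1 callus, 3 lower and 1 higher with T87, and 1 lower with 2,4-D. TMK1, a kinase that acts in rapid auxin responses, was lower in each, by 2.28-fold, 2.51-fold and 2.61-fold, while TMK3 was 4.28-fold higher in T87 callus. The receptor gene AFB1 was 5.76-fold lower in T87 callus.

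Of 11 transcription factors tied to growth, 2 rose and 2 fell in 35S:WIND1 callus, 2 and 4 with T87, and 3 and 5 with 2,4-D. HBI1, a factor that promotes cell elongation, was 98.2-fold lower in 35S:WIND1 callus. It was at least 407-fold lower in T87 callus and 358-fold lower in 2,4-D callus. PIF4, which drives elongation in warmth and shade, was 2.68-fold lower in 35S:WIND1 callus (adjusted p = 0.047), 138-fold lower in T87 callus and 422-fold lower in 2,4-D callus. ARF5, an activator of auxin-induced genes, was higher in each, by 4.18-fold, 3.57-fold and 6.53-fold.

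Of 9 PP2C clade D genes, whose products SAUR proteins inhibit, 1 was higher and 2 lower in 35S:WIND1 callus, 3 and 3 with T87, and 3 and 1 with 2,4-D. PP2C.D1 had levels of -2.50, -2.93 and -1.20 in 35S:WIND1 callus, -7.08, -5.78 and -7.44 in T87 callus, 3.15, 2.84 and 2.80 in 2,4-D callus, and 0.82, 0.67 and 1.402 in seedlings. It was thus lower in 35S:WIND1 callus and T87 callus and 3.91-fold higher in 2,4-D callus (adjusted p = 0.0053). Not every T87 array measured it. Across all genes, 5.64% were called in opposite directions in different calli. PP2C.D8 was higher in each callus, by 3.15-fold, 2.74-fold and 2.59-fold.

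Of 10 proton pump genes tested, 1 was higher and 3 lower in 35S:WIND1 callus, 1 and 4 with T87, and 3 and 4 with 2,4-D. AHA4 was 5.22-fold lower in 35S:WIND1 callus (adjusted p = 0.016), and 14.8-fold higher in T87 callus and 48.6-fold higher in 2,4-D callus. AHA11 was lower in each callus, by 3.70-fold, 5.08-fold and 4.60-fold, and AHA3 by 4.91-fold, 2.39-fold and 8.41-fold. AHA1 and AHA2, the pumps most often studied in seedlings, were called in none.

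Markers of leaf mesophyll, epidermis, guard cells and trichomes were mostly lower in the calli, as the SAUR clusters were, and root and xylem markers differed between calli. In bulk RNA, fewer cells of a type and less RNA per cell cannot be told apart. Beside the marker counts, 19.6%, 26.5% and 24.2% of all genes were called lower in 35S:WIND1, T87 and 2,4-D callus. The shares of all genes called higher were 12.5%, 20.8% and 18.6%. Of 5 leaf mesophyll genes, 5, 4 and 5 were lower in 35S:WIND1, T87 and 2,4-D callus than in seedlings, and their summed signal in multiples of the 75th percentile was 96.7 to 144, 108 to 136 and 5.999 to 15.8, against 462 to 562 in seedlings. Of 5 epidermis genes, 3, 5 and 5 were lower, with sums of 7.79 to 15.1, 0.459 to 0.650 and 1.98 to 3.28, against 28.4 to 30.4. Of 5 guard cell and trichome genes, 5, 5 and 4 were lower, with sums of 0.0777 to 0.745, 0.0469 to 0.113 and 0.128 to 0.170, against 3.05 to 3.80. The fifth of these, the trichome regulator GL3, was 6.78-fold higher in 2,4-D callus (adjusted p = 5.56e-04). Among the falls of these 5 genes, the smallest bound was only 1.44-fold in 35S:WIND1 callus and 1.42-fold in T87 callus.

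In T87 callus PDF1, FAMA, GL1 and GL3 were above background on no array, in 2,4-D callus FAMA, GL1 and MUTE, and in 35S:WIND1 callus GL3. Of 5 root genes, 2, 5 and 3 were lower, with sums of 20.7 to 32.5, 0.586 to 0.925 and 22.2 to 30.4, against 32.4 to 39.0. Another root gene, SHR, was 2.77-fold higher in 2,4-D callus (adjusted p = 0.0377), where 1 array gave it no value. Of 5 xylem genes, 2 were higher in 35S:WIND1 callus, 3 were lower in T87 callus and 4 in 2,4-D callus, with sums of 8.26 to 62.5, 0.402 to 0.481 and 0.153 to 0.181, against 4.55 to 5.63. Of 5 regulators of auxin-induced callus, 3 were lower in 35S:WIND1 callus, 2 were higher and 3 lower in T87 callus, and 4 were higher in 2,4-D callus, and 4 of the 5 were above background on no array of 35S:WIND1 or of T87 callus. Their sums were 0.0420 to 0.0916, 1.14 to 1.19 and 4.39 to 5.74, against 0.113 to 0.268 in seedlings. Of the 2 regulators called higher in T87 callus, 1 was above background on no T87 or seedling array. The smallest bound among the falls of the regulators was 1.09-fold in 35S:WIND1 callus and 1.08-fold in T87 callus. The part of these tissues in the SAUR differences was not tested.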

How the data were processed

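Scanner files hold, per the file headers, Agilent Feature Extraction intensity on a linear scale, version 9.1.3.1 per the submitters' processing notes. The processed signal, already background-subtracted, was used without control and outlier spots. The authors' own value table holds natural log signals from which a constant, different in each group, had been taken, as comparison with the scanner values showed. Its column medians were -1.93, -1.56 and -2.02 (35S:WIND1), -2.52, -2.40 and -2.57 (T87), -2.49, -2.70 and -2.34 (2,4-D), and -1.74, -2.08 and -1.81 (seedlings). Its scale is thus known, and the reason for its centring is not. Computed here were log2 signals minus the 75th percentile of each array (12 arrays). Probes well above background on all 3 arrays of a group entered (21831 probes, 21347 genes); the brightest probe stood for a gene. Tests used limma 3.58.1 (R 4.3.3), two-sided, 12 arrays in 1 fit, no block, tested on simulated data. In the text, "at least N-fold" divides the bright group's mean by a floor mean, where an array's floor is its dimmest signal that counts as well above background, or the gene's own signal if that is brighter. The 3 slides hold 1 array of each group, so slide and replicate number coincide, and each group had 1 position on the slides: position and group cannot be told apart. Same-numbered arrays did not deviate together (18 correlations, -0.14 to 0.12, 2 over 0.1), so numbers were not treated as pairs.

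Members were named by locus code, and the array's annotation can be old; symbols came from a table of assembly TAIR10.1, where AT1G29510 is listed as SAUR68 with the synonym SAUR67, the name used here. The members and lists, and how genes were picked for naming, were chosen with earlier results of these data known. By that rule, cluster genes are given by array or by range, with the 4 largest called rises and falls per callus outside the clusters, the 3 largest per direction between calli, and up to 2 per direction of each list; further genes were named after their values were seen. Alternatives were normexp correction with offset 50 (on the median signal, the column the files hold), quantile and median scaling, the deposited table, other filters, the mean of probes, no minimum fold, the replicate block, only the compared groups, and each array left out. The number of arrays limits precision, and no sequence was used here.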

Additional observations from a re-analysis of the deposited data

Results flagged for a closer look

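Of the 44 SAUR genes tested, 2 were called in opposite directions in different calli, beside 5.64% of all genes, so their number is no result about the family. Opposite calls against the same seedlings already fix a difference between the calli and its sign, and the p-values below (limma, adjusted over all genes) add no independent support. SAUR76 was higher in 2,4-D callus and lower in the other calli than in seedlings, with a log2 difference of -4.47 between 35S:WIND1 callus and 2,4-D callus (adjusted p = 2.21e-05) and of -9.75 between T87 callus and 2,4-D callus (adjusted p = 7.39e-08). Its T87 arrays were not well above background, so the second value is no measured size. SAUR51 was higher in 2,4-D callus and lower in T87 callus, with a log2 difference of -6.16 between T87 callus and 2,4-D callus (adjusted p = 9.07e-07).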

How the results depend on the processing

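Called changes of single SAUR genes numbered 139 over the 6 comparisons, and counts below are genes called. With normexp correction 64 kept their call, 71 lost it and 4 changed direction, the last being SAUR21 between 35S:WIND1 and T87 callus (0.21) and SAUR26, SAUR5 and SAUR15 between 35S:WIND1 and 2,4-D callus (-0.076, -0.17 and -0.12). The cause was not tested. Median scaling kept 127, quantile normalization and the deposited values 134 each, and the fit of the compared groups alone 128, with none reversed. Under the replicate block 136 kept their call, and the genes lower in the 3 calli numbered 32, 34 and 33 and the genes higher 2, 2 and 5. In 35S:WIND1 over T87 callus 11 were then higher, without SAUR10, SAUR16 and SAUR63.

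Over seedlings, normexp gave 13, 21 and 15 lower in 35S:WIND1, T87 and 2,4-D callus, and 2 higher in 2,4-D callus. Genes measured on all 12 arrays (11 tested) gave 2, 3 and 3 lower and 3 higher in 2,4-D callus, and those measured on all 6 arrays, chosen after seeing the data, 7, 4 and 3 lower. Median scaling gave 5 higher in 35S:WIND1 and 5 in T87 callus, the deposited values 4 in 35S:WIND1 callus, and the fit of 2 groups 4 in T87 callus. In 35S:WIND1 over T87 callus the genes higher were 2 with normexp, 9 with median scaling, 2 with the filter on all 12 arrays, 9 in the fit of 2 groups, 8 with bounds for dim groups and 2 when measured on all 6 arrays (both chosen after seeing the data), and the genes lower 1, or 0 with the deposited values. In 35S:WIND1 over 2,4-D callus the genes higher were 1, 16 with the deposited values, 2, 5 and 2 under normexp, those values, the 12-array filter, bounds and 6 arrays, and the genes lower 1 with normexp or the 12-array filter and 6 with median scaling. In T87 over 2,4-D callus 2 were higher with quantile, median scaling, the deposited values and no minimum fold, and 3 lower with normexp and the 12- and 6-array filters.

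With each array left out in turn, genes lower in the 3 calli numbered 31 to 34, 32 to 34 and 31 to 32, and genes higher 2 to 3, 2 to 3 and 5 to 5. Genes higher and lower were 9 to 14 and 1 to 3 in 35S:WIND1 over T87 callus, with 9 without 35S:WIND1 replicate 3, then 6 to 12 and 3 to 6 in 35S:WIND1 over 2,4-D callus, with 6 lower without 35S:WIND1 replicate 3, and 1 to 2 and 5 to 7 in T87 over 2,4-D callus. The deposited values raised the median log2 change of all genes by 0.49 in 35S:WIND1 callus over seedlings and by 0.66 in 35S:WIND1 callus over 2,4-D callus. Signals below background leave the size of most cluster changes open beyond their bounds. Genes called higher made up 38.8%, 43.99% and 43.4% of all genes called in 35S:WIND1, T87 and 2,4-D callus over seedlings, against 59.1%, 70.8% and 71.4% under median scaling and 63.7%, 42.9% and 35.7% with the deposited values. For 35S:WIND1 over T87 callus the share was 54.4%, 35.2% under median scaling and 75.3% with the deposited values, and over 2,4-D callus 59.0%, 42.4% and 82.5%.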
